A study of Mus musculus with 12 samples.

Results

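The 8 genes described here belong to the BCL2 family, whose proteins decide at the mitochondrion whether a cell survives or undergoes apoptosis. They were taken as a fixed list of names, which was chosen with earlier results of these data known. The list holds the survival genes Bcl2, Mcl1 and Bcl2l1, the pore-forming effectors Bax and Bak1, and the BH3-only genes Bcl2l11, Bid and Bbc3. All 8 were found among the 21754 genes of the count table, and all 8 passed the filter on low counts. RNA was measured in 12 libraries from bone marrow of healthy wild type C57BL/6 mice, with 3 libraries for each of 4 populations sorted by flow cytometry from marrow depleted of other lineages. These were Siglec-H-negative pre-cDCs, which give rise to conventional dendritic cells, Siglec-H-positive cells with low CCR9 and low B220 (lo-lo), Siglec-H-positive cells with low CCR9 and high B220 (lo-hi), and plasmacytoid dendritic cells with high CCR9 and high B220 (pDCs). None of the mice carried a mutation or received a treatment, and the study used adult animals of both sexes without giving the age or sex behind a library. The libraries were made by SCRB-seq, which primes at the poly(A) tail with a barcode and a molecular identifier and reads mostly the 3′ ends of transcripts. The study describes 3 individual mice in one place and sorting from pooled marrow in another, so the p-values measure the spread between these libraries.

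BCL2, MCL1 and BCL-XL, the last encoded by Bcl2l1, hold back apoptosis by binding both the effectors and the BH3-only proteins. BAX and BAK, once released or activated, open the outer mitochondrial membrane and let cytochrome c out, which starts the caspase cascade. BIM, encoded by Bcl2l11, BID and PUMA, encoded by Bbc3, are sensors that carry death signals to this switch, and BCL2 is known as a survival factor that dendritic cells depend on to different degrees.

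The grouping of the libraries needs to be stated before any value. The columns of the table are named by plate wells, and the deposited labels give the wells to populations in blocks of neighbouring wells. The source data of the study list 28 transcription factors in 12 named samples, and each of these 12 samples ranked all 378 pairs of these genes as 1 well did, with 0 pairs in the opposite order. The next best well had at least 7 pairs in the opposite order. By this match, wells A1, A5 and A9 held pre-cDCs, A2, A6 and A10 lo-lo cells, A3, A7 and A11 lo-hi cells, and A4, A8 and A12 pDCs. Label and match named the same population for 4 wells, which were A1, A6, A7 and A12, and different ones for 8. The matched populations were used here, with wells A1 to A4 called set 1, A5 to A8 set 2 and A9 to A12 set 3, and results by the deposited labels are given beside them. None of the 8 members was among the 28 genes.

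Total counts ranged from 1801463 to 5995971 per library with a median of 3087455, and 3 counts came to 0.511 to 1.65 CPM (counts per 1e+06 counts of the library, scaled by the TMM method). Among the matched populations, the summed level of 8 pDC markers was 1680 to 2635 CPM in pre-cDCs and 10198 to 11527 CPM in pDCs, and that of 8 cDC markers was 430 to 517 CPM against 113 to 115 CPM. All 16 of these markers were called among the populations. Of them, 5 pDC markers and 3 cDC markers had no part in the match of the wells, and the others did. T and NK cell markers summed to 0.948 to 9.08 CPM in any library. The 8 granulocyte markers summed to 3236 to 20587 CPM and the 6 erythroid markers to 4682 to 18422 CPM. In the main fit, which left out the set, 0 of them were called among the populations. With the set as a replicate block, 4 of the 8 granulocyte markers and 0 of the 6 erythroid markers were called. The pDC library had the lowest granulocyte sum in each of the 3 sets. Of the 4 basophil and mast cell markers, 0 were called in the main fit and 3 with the block. They summed to 828 and 709.5 CPM in the pre-cDC libraries A1 and A5. In all other libraries they summed to 44.2 to 197 CPM, and every comparison with pre-cDCs includes A1 and A5. The part of any such cells in the results was not tested. Set 3 had 19.6 to 62.9 CPM of the Y-linked gene Ddx3y and 26.6 to 58.4 CPM of Xist, against at most 3.62 CPM and at least 218 CPM in the other sets. Members are therefore given by set throughout, while the main tests took no account of the set, so differences between sets add to their spread. In bulk RNA, fewer cells of a type and less RNA per cell cannot be told apart.

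Of the members, 2 survival genes are shown by the 250 bases before their RefSeq start (GRCm38.p6). They were picked because Bcl2 spanned the widest range of mean levels (11-fold) and Mcl1 a narrower one (1.66-fold). Bcl2l1 was narrower still (1.45-fold). Bcl2 lies on chromosome 1 from 106538178 to 106714274 on the minus strand, and the window chr1:106714291-106714540 touched 0 annotated exons. Mcl1 lies on chromosome 3 from 95658788 to 95663176 on the plus strand, and the window chr3:95658471-95658720 also touched 0 exons. Capitals mark the GC box GGGCGG on either strand, a motif bound by SP1-type factors.
Bcl2: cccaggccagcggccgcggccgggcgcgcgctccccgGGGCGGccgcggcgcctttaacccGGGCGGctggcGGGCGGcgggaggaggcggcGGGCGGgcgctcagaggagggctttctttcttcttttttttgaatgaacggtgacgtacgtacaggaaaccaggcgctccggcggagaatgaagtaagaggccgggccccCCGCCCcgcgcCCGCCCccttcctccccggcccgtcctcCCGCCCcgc
Mcl1: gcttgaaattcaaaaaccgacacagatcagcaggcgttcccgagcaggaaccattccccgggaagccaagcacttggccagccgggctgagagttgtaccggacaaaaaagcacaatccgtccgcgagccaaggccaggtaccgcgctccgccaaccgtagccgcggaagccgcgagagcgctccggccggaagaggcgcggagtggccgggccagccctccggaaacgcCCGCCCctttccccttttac
The Bcl2 window held 7 GC boxes and was 74.8% G or C, and the Mcl1 window held 1 and was 64.4% G or C. GGGCGG was found in 32.7% of 32851 RefSeq windows of this length. The E-box CAGCTG (13% of all windows), the E-box CACGTG (6.02%) and the ETS-type motif GAGGAAGT (2.44%) were searched on both strands as well and were in neither of the 2 windows. Among the other members, GAGGAAGT was found 22 bases before the start of Bak1. CACGTG was found 9 bases before that of Bax and 64 bases before 1 of the 3 starts of Bbc3. The Bak1 window lay inside the annotated gene and touched 5 annotated exons. The Bid window touched 2, and some windows of Bcl2l1 touched exons as well. GGGCGG was also in windows of Bcl2l11 (3 and 2 times), Bax (2), Bid (3) and Bbc3 (5, 1 and 7) and in none of Bcl2l1 and Bak1. The means of Bbc3 spanned a 1.19-fold range.

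Bcl2 RNA was highest in lo-lo cells and lowest in pDCs. Its level was 55.3, 45.1 and 43.2 CPM in the pre-cDC libraries of sets 1, 2 and 3, and 96.9, 124 and 106 CPM in the lo-lo libraries. It was 27.4, 33.6 and 44.1 CPM in lo-hi libraries and 7.15, 11.7 and 10.8 CPM in pDC libraries. The lo-lo libraries stood above all others and the pDC libraries below all others, while the ranges of pre-cDCs and lo-hi cells overlapped. In each of the 3 sets, the lo-lo library was the highest and the pDC library the lowest. The pDC values rested on 25 to 42 counts per library, well over the floor of 3.

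**Figure D1:**
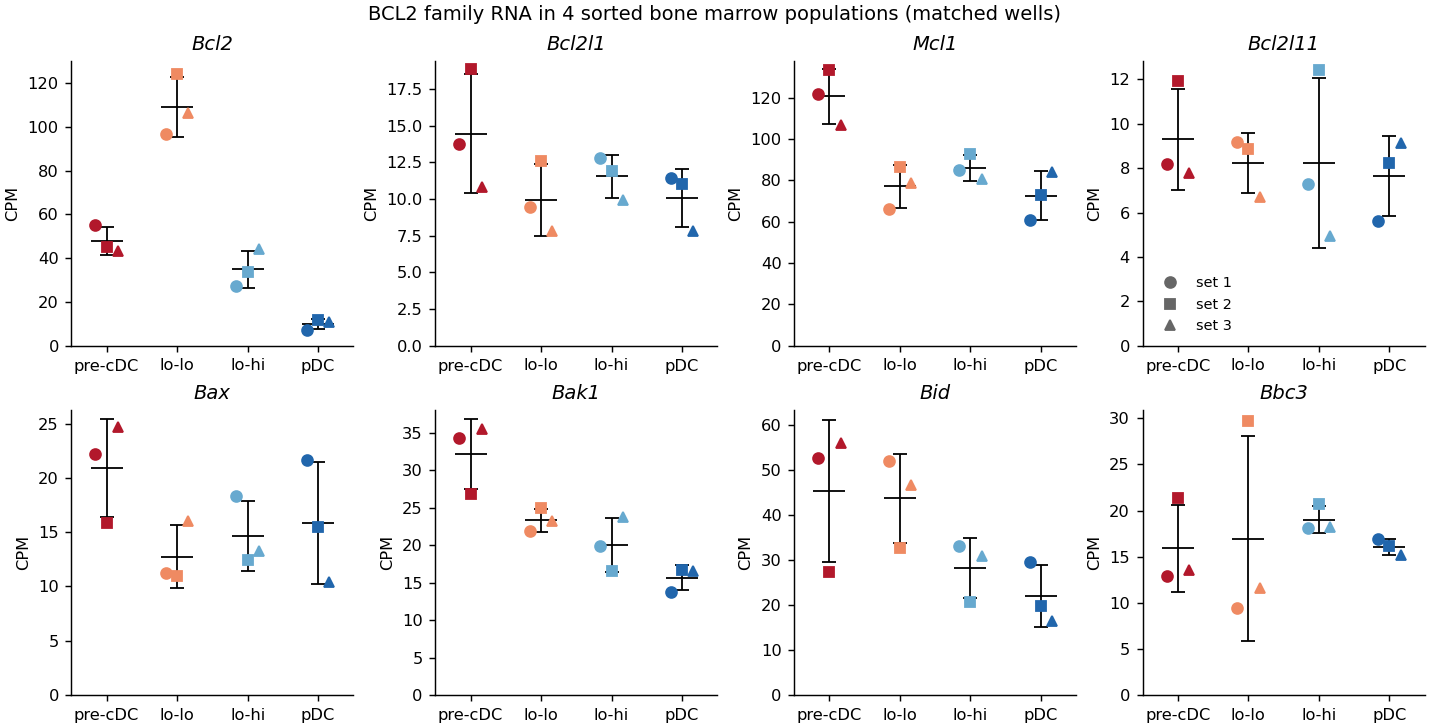
Level of each of the 8 members in CPM (y axis, from 0, on its own scale in each panel) in the 4 matched populations (x axis). Points are libraries, shaped by set, and black lines give the mean ± SD of 3 libraries. Bcl2 was 96.9 to 124 CPM in lo-lo cells and 7.15 to 11.7 CPM in pDCs, whereas the ranges of Bcl2l11 overlapped in all 4 populations.

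Among the 4 matched populations, 3 of the 8 members were called by edgeR's quasi-likelihood test at a Benjamini-Hochberg adjusted p of 0.01, beside 19.9% of the 15293 genes tested. These were Bcl2 (adjusted p = 4.06e-11), Bak1 (adjusted p = 0.000593) and Mcl1 (adjusted p = 0.0031), and Bcl2 ranked 58 of all genes by its p. By the deposited labels, 0 of the 8 members and 0% of all genes were called by edgeR, with 166 genes at an unadjusted p under 0.05, and each member had an adjusted p of 0.99994 among the labels. Each call below therefore holds for the matched wells alone. The pairwise tests share libraries, since each population enters 3 of them.

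Between neighbouring populations in the order used here, Bcl2 was the 1 member called at each step. In the study, pre-cDCs generated conventional dendritic cells, and part of the lo-lo cells clustered with pre-cDCs by single-cell RNA. A rise or fall from pre-cDCs, here and below, is thus a difference between populations and not a course of development. In lo-lo cells it was 2.27-fold higher than in pre-cDCs (log2 fold change 1.18, SE 0.187, edgeR adjusted p = 0.000155), where 3.16% of all genes were called. From lo-lo to lo-hi cells it fell by 1.67 on the log2 scale (SE 0.194, edgeR adjusted p = 4.91e-06), against 5.17% of all genes. From lo-hi cells to pDCs it fell by 1.84 on the log2 scale (SE 0.229, edgeR adjusted p = 2.88e-05), a step at which 0.961% of all genes were called. Across both steps, the pDC level was 11.4-fold below that of lo-lo cells (log2 fold change -3.51, SE 0.218, edgeR adjusted p = 3.81e-11), with 13.8% of all genes called and Bcl2 as the 1 member among them. Against pre-cDCs, pDCs had 5.03-fold less Bcl2 (log2 fold change -2.33, SE 0.222, edgeR adjusted p = 6.88e-09). Lo-hi cells and pre-cDCs were not separated (log2 fold change -0.49, 95% interval -0.90 to -0.07, edgeR adjusted p = 0.0922). The called differences of Bcl2 stayed called in each of the 12 fits that left out 1 library, where pDC over lo-lo ranged from -3.70 to -3.31.

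**Figure D2:**
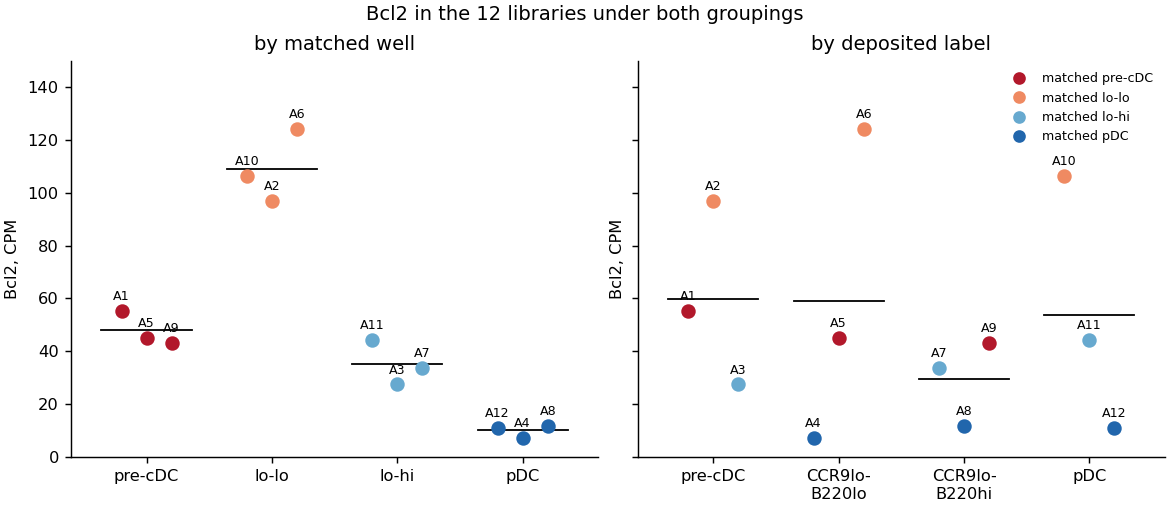
Bcl2 in CPM (y axis) in the 12 libraries, grouped by matched well (left) and by deposited label (right). Points are libraries with their well, coloured by matched population, and black lines are group means. The groups on the left are 7.15 to 11.7 CPM for pDCs and 96.9 to 124 CPM for lo-lo cells, while on the right each label other than CCR9lo-B220hi holds a lo-lo library.

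In the 4 wells where label and match name the same population, Bcl2 had the same order. It was 55.3 CPM in A1 (pre-cDC), 124 CPM in A6 (lo-lo), 33.6 CPM in A7 (lo-hi) and 10.8 CPM in A12 (pDC). These are single libraries and carry no test. Under the deposited labels, the log2 fold change of Bcl2 was -0.031 (SE 0.962) in lo-lo over pre-cDC and 0.89 (SE 0.985) in pDC over lo-hi. Both were opposite in sign to the values of the matched wells, but smaller than their SE, so neither shows a direction.

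The summed level of 16 proliferation genes moved with Bcl2 over part of the series. It was 1818 to 2334 CPM in pre-cDCs, 2101 to 2287 CPM in lo-lo cells, 841 to 1086 CPM in lo-hi cells and 388 to 468 CPM in pDCs, with 16 of 16 genes called. Both Bcl2 and this sum fell from lo-lo to lo-hi cells and on to pDCs, whereas the ranges of the sum overlapped between pre-cDCs and lo-lo cells, where Bcl2 differed. The part of cell division in the level of Bcl2 was not tested. The genes most like Bcl2 by Pearson correlation of log2 CPM over the 12 libraries, among 7824 genes, were Smc4 (r = 0.98), a subunit of the condensin complex, Cbx3-ps6 (r = 0.978), a pseudogene whose reads may come from its parent gene, and H2afy (r = 0.976), which encodes the histone variant macroH2A. Smc4 had a mean of 207 CPM in pre-cDCs, 293 in lo-lo cells, 143 in lo-hi cells and 86.5 in pDCs. The points of such a correlation share libraries, depth and populations.

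Mcl1, which encodes a short-lived survival protein, was highest in pre-cDCs. Its level was 122, 133 and 107 CPM in pre-cDCs, and 66.1, 86.7 and 78.6 CPM in lo-lo cells. In lo-hi cells it was 84.8, 92.6 and 80.5 CPM, and in pDCs it was 60.6, 73 and 84.2 CPM. All 3 pre-cDC libraries stood above the other 9, whose ranges overlapped. Against pre-cDCs, pDCs had 1.67-fold less Mcl1 (log2 fold change -0.74, SE 0.164, edgeR adjusted p = 0.000985). The difference of lo-lo cells from pre-cDCs was -0.64 on the log2 scale and missed the cutoff (SE 0.163, edgeR adjusted p = 0.0162). It passed with DESeq2 (adjusted p = 0.00522), without the filter (edgeR adjusted p = 0.00597) and with the set as a replicate block (edgeR adjusted p = 0.00353). The difference of lo-hi cells from pre-cDCs missed the cutoff as well (log2 fold change -0.49, SE 0.165, edgeR adjusted p = 0.037). Among the Siglec-H-positive populations the fitted differences ranged from -0.25 to 0.16. The call of Mcl1 among the 4 populations was lost without A1 (edgeR adjusted p = 0.0258) or without A5 (edgeR adjusted p = 0.01005), while the call of pDCs over pre-cDCs was kept in each of the 12 fits that left out 1 library. These pre-cDC libraries also had 828 and 709.5 CPM of 4 basophil and mast cell markers. The third had 109 CPM, and all other libraries had 44.2 to 197 CPM. The part of such cells in the Mcl1 level, and in the other differences from pre-cDCs, was not tested.

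Bcl2l1 was low in every population, with 13.8, 18.8 and 10.8 CPM in pre-cDCs, and 9.45, 12.6 and 7.82 CPM in lo-lo cells. Lo-hi cells had 12.8, 11.9 and 9.92 CPM, and pDCs 11.4, 11.1 and 7.81 CPM. The ranges of all 4 populations overlapped, although the pre-cDC library was the highest in each of the 3 sets. No difference passed the test (edgeR adjusted p = 0.333 among the populations), and that of pDCs over pre-cDCs was -0.46 on the log2 scale with a 95% interval from -0.97 to 0.06. The fitted difference of Bcl2 in the same comparison, -2.33, lies outside this interval. It rested on 18 to 67 counts per library. Thus, of the 3 survival genes, Bcl2 spanned an 11-fold range of population means, Mcl1 a 1.66-fold and Bcl2l1 a 1.45-fold range.

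**Figure D3:**
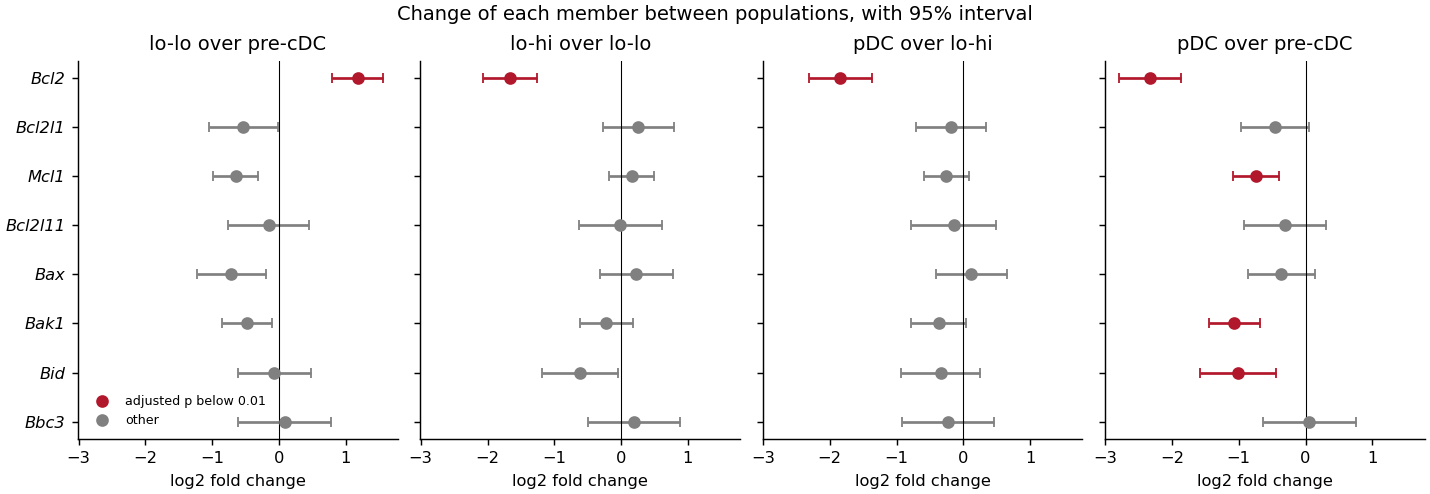
Log2 fold change (x axis) of each member (y axis) in 4 comparisons of matched populations, with 95% intervals from the edgeR fit of 12 libraries. Red marks an adjusted p below 0.01 over all 15293 genes. Bcl2 is red in all 4 panels, at 1.18, -1.67, -1.84 and -2.33, and Mcl1, Bak1 and Bid are red for pDCs over pre-cDCs.

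Of the effectors, Bak1 decreased from pre-cDCs to pDCs. It was 34.3, 26.8 and 35.5 CPM in pre-cDCs and 21.9, 24.9 and 23.2 CPM in lo-lo cells. It was 19.9, 16.6 and 23.7 CPM in lo-hi cells and 13.8, 16.7 and 16.5 CPM in pDCs. The pre-cDC libraries stood above all others, and the ranges of lo-hi cells overlapped with those of both of its neighbours. In pDCs it was 2.09-fold below pre-cDCs (log2 fold change -1.06, SE 0.188, edgeR adjusted p = 7.65e-05), a call kept in each of the 12 fits that left out 1 library. In lo-hi cells it was 1.62-fold below pre-cDCs (log2 fold change -0.70, SE 0.19, edgeR adjusted p = 0.00914), as the 1 member called in that comparison, where 13.1% of all genes were called. This second call was lost in 7 of the 12 fits, namely without A1, A2, A3, A6, A7, A9 or A10, with adjusted p from 0.0111 to 0.0479, and also with DESeq2 (adjusted p = 0.0131). Neither step between neighbouring Siglec-H-positive populations passed. Bak1 lies on chromosome 17 from 27019810 to 27029009 on the minus strand, and the antisense gene Ggnbp1 covers its 3′ end with 50 counts in all libraries together.

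The genes most like Bak1 over the 12 libraries were Lmo1 (r = 0.972), a LIM-domain transcriptional regulator, Mcub (r = 0.958), a subunit of the mitochondrial calcium uniporter, and Ms4a6b (r = 0.957), a membrane protein of the MS4A family. Their means fell further than that of Bak1: Lmo1 was 30 CPM in pre-cDCs and 2.08 CPM in pDCs, and Mcub 44.1 and 3.88 CPM.

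Bax, the other effector, did not follow the same order. It was 22.3, 15.9 and 24.7 CPM in pre-cDCs, 11.2, 10.9 and 16.1 CPM in lo-lo cells, and 18.3, 12.4 and 13.2 CPM in lo-hi cells. In pDCs it ranged from 10.4 CPM in set 3 to 21.6 CPM in set 1, with 15.5 CPM in set 2. The pDC range overlapped that of every other population, and no comparison passed (edgeR adjusted p = 0.154 among the populations). The difference of pDCs from pre-cDCs was -0.36 on the log2 scale with a 95% interval from -0.87 to 0.15. The largest fitted difference was that of lo-lo cells from pre-cDCs (log2 fold change -0.71, SE 0.252, edgeR adjusted p = 0.108). Within a library, the log2 ratio of Bax to Bak1 was -0.63 ± 0.12 (SD, n = 3) in pre-cDCs and -0.04 ± 0.66 in pDCs, where the single libraries were 0.65, -0.11 and -0.66.

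Among the BH3-only genes, Bid was lower in pDCs. It was 52.7, 27.3 and 56.1 CPM in pre-cDCs, and 52, 32.8 and 46.7 CPM in lo-lo cells. It was 33.1, 20.7 and 30.9 CPM in lo-hi cells, and 29.6, 19.9 and 16.5 CPM in pDCs. Set 2 was the lowest of the 3 sets in pre-cDCs, lo-lo and lo-hi cells, and its pre-cDC value lay below the pDC value of set 1, so the ranges of these populations overlapped. In each of the 3 sets, however, the pDC library was the lowest. In pDCs, Bid was 2.02-fold below pre-cDCs (log2 fold change -1.02, SE 0.27, edgeR adjusted p = 0.00732), but the call was lost without A1, A8, A9, A11 or A12, with adjusted p from 0.0117 to 0.0409. Among the 4 populations it missed the cutoff (edgeR adjusted p = 0.0167), which it passed with DESeq2 (adjusted p = 0.00178), in edgeR without a filter on low counts (adjusted p = 1.37e-07) and in edgeR without A4, A5 or A6. Against lo-lo cells the difference of pDCs was -0.95 (SE 0.267, edgeR adjusted p = 0.0155). It passed with DESeq2 (adjusted p = 0.00435) and without the filter (edgeR adjusted p = 1.12e-05). With the set as a replicate block, Bid was called among the populations (edgeR adjusted p = 2.55e-05). The same edgeR fit called it in pDCs over pre-cDCs (adjusted p = 3.48e-05), pDCs over lo-lo cells (8.18e-05) and lo-hi cells over pre-cDCs (0.00533). Bid lies on chromosome 6 from 120891930 to 120916853 on the minus strand, and Bcl2l13, on the other strand, covers its 3′ end. The setting of the counting for strand is not given in the sources used here, so reads of both genes may be mixed. Bcl2l13 had 397 counts over all libraries and did not differ by the test (edgeR adjusted p = 0.653 among the populations).

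Bcl2l11, which encodes BIM, showed no difference between populations at this depth. It was 8.2, 11.9 and 7.77 CPM in pre-cDCs, 9.15, 8.87 and 6.7 CPM in lo-lo cells, 7.29, 12.4 and 4.96 CPM in lo-hi cells, and 5.62, 8.21 and 9.11 CPM in pDCs. The lowest and the highest library were both lo-hi. With 9 to 33 counts per library, the 95% interval of pDCs over pre-cDCs ran from -0.92 to 0.31 on the log2 scale (edgeR adjusted p = 0.479).

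Bbc3, which encodes PUMA, a target of p53, was likewise not called (edgeR adjusted p = 0.905 among the populations). It was 12.9, 21.3 and 13.5 CPM in pre-cDCs and 9.45, 29.7 and 11.6 CPM in lo-lo cells. It was 18.1, 20.7 and 18.2 CPM in lo-hi cells and 16.9, 16.1 and 15.2 CPM in pDCs. The lo-lo library of set 2 held the highest value of all and that of set 1 the lowest. The 95% interval of pDCs over pre-cDCs was -0.64 to 0.75 on the log2 scale. Without A6 the edgeR adjusted p among the populations was 0.0832, the lowest of the 12 fits that left out 1 library.

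In pDCs over pre-cDCs, 4 of 8 members were called, all lower (Bcl2, Mcl1, Bak1 and Bid), where 21.7% of all genes were called, 11.4% as higher and 10.4% as lower. The fitted difference was below 0 for 7 of 8 members, Bbc3 being the exception, and the median over the members was -0.60 against 0.05 over all genes tested. The 4 lower genes hold survival and death functions alike.

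The balance of a survival gene against a BH3-only gene was computed within each library, where the scaling of the library does not enter. The log2 ratio of Bcl2 to Bcl2l11 was 2.38 ± 0.42 (SD, n = 3) in pre-cDCs, 3.73 ± 0.30 in lo-lo cells, 2.17 ± 0.89 in lo-hi cells and 0.37 ± 0.13 in pDCs. The pDC libraries, at 0.35, 0.51 and 0.25, stood below all others. The lo-lo libraries, at 3.40, 3.81 and 3.99, stood above them all. The ratio of Bcl2 to Bbc3 had the same order of means, at 1.62 ± 0.51, 2.87 ± 0.70, 0.86 ± 0.37 and -0.73 ± 0.44. By contrast, the ratio of Mcl1 to Bcl2l11 was 3.72 ± 0.21, 3.23 ± 0.35, 3.49 ± 0.56 and 3.26 ± 0.15, with ranges that overlapped in all pairs other than pre-cDCs and pDCs. Because SCRB-seq reads 3′ ends, a ratio between genes depends on how each 3′ end is captured, and only its differences between populations can be read. No test was run on the ratios, which follow from the member values.

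**Figure D4:**
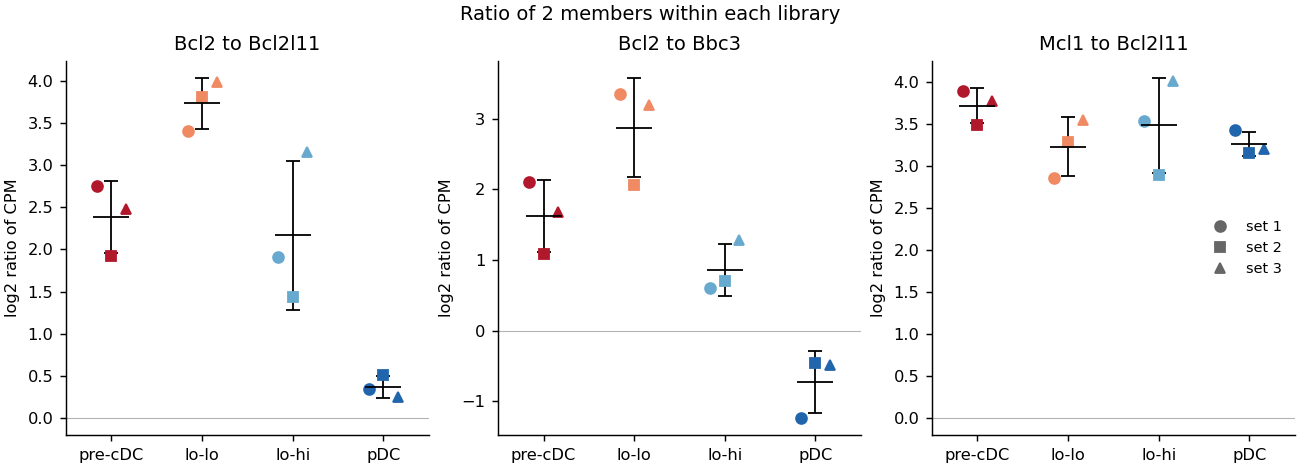
Log2 ratio of the CPM of 2 members within a library (y axis) in the 4 matched populations (x axis), for Bcl2 to Bcl2l11, Bcl2 to Bbc3 and Mcl1 to Bcl2l11. Points are libraries, shaped by set, and black lines give the mean ± SD of 3 libraries. Bcl2 to Bcl2l11 was 3.73 ± 0.30 in lo-lo cells and 0.37 ± 0.13 in pDCs.

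The wider family and the death pathway were read from 8 lists of 55 genes, of which 49 were tested. Among the 4 populations 11 of the 49 were called, a share near the 19.9% of all genes. In pDCs over pre-cDCs 7 were higher, 6 were lower and 36 did not pass, where 11.4% of all genes were higher and 10.4% lower. The median log2 fold change of the 49 was 0.05, as over all genes. Bcl2l10, Bcl2a1a, Bcl2a1d and Hrk were not found in the count table by symbol, and Bok and Bcl2l15 did not pass the filter on low counts.

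Among the BH3-only relatives, 1 of 4 tested genes was called. Pmaip1, which encodes NOXA, the BH3-only partner of MCL1, had a mean of 31.4 CPM in pre-cDCs, 19.3 in lo-lo cells, 7.92 in lo-hi cells and 7.07 in pDCs. It was 4.42-fold lower in pDCs than in pre-cDCs (log2 fold change -2.14, SE 0.253, edgeR adjusted p = 2.34e-07). Bad, a further sensor, was 51.9 CPM in pre-cDCs and 39.8 CPM in pDCs (edgeR adjusted p = 0.105). Of the antiapoptotic relatives, 0 of 2 tested genes passed with edgeR. Bcl2l2 was 2.3 and 4.88 CPM in pre-cDCs and pDCs, and Bcl2a1b, whose near-identical copies can share its reads, was 5.74 and 1.78 CPM (edgeR adjusted p = 0.0477 and 0.0526). Of the other relatives, 0 of 5 passed.

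Downstream of the mitochondrion, 1 of 10 genes of the apoptosome and caspase list was called, as lower in pDCs. Cycs, which encodes cytochrome c, was 160 CPM in pre-cDCs and 61.5 CPM in pDCs (log2 fold change -1.37, SE 0.184, edgeR adjusted p = 1.72e-06). Apaf1, the scaffold of the apoptosome, and Casp9 did not pass. Of the 5 IAP genes, which encode caspase inhibitors and ubiquitin ligases, Birc3 was called, with 19.6 CPM in pre-cDCs and 38.3 CPM in pDCs (log2 fold change 0.98, SE 0.176, edgeR adjusted p = 9.99e-05).

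In the death receptor pathway, 2 of 8 genes were higher and 2 lower in pDCs. Cflar, the inhibitor of caspase-8, rose from 32.6 CPM in pre-cDCs to 54.5 CPM in pDCs (log2 fold change 0.74, edgeR adjusted p = 0.000819), and Casp8 itself fell from 46.1 to 29.6 CPM (log2 fold change -0.64, edgeR adjusted p = 0.00435). The TNF receptor gene Tnfrsf1a fell from 68.2 to 28.6 CPM (log2 fold change -1.25, edgeR adjusted p = 9.71e-07). Tnfrsf10b, named after its values were seen, was the other higher gene, at 0.225 and 2.39 CPM, near the level of 3 counts, and it was not called among the 4 populations (edgeR adjusted p = 0.0269).

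In the p53 and FOXO list, 2 of 8 genes were higher and 1 lower. Trp53inp1, a p53 target, was 9.79 CPM in pre-cDCs, 14.8 in lo-lo cells, 32 in lo-hi cells and 36.7 in pDCs (log2 fold change of pDCs over pre-cDCs 1.93, SE 0.214, edgeR adjusted p = 8.57e-08). Foxo1, which encodes a transcription factor that can induce BIM and PUMA, was 16.6 CPM in pre-cDCs and 35.2 CPM in pDCs (log2 fold change 1.09, edgeR adjusted p = 0.000253). Cdkn1a, the cell cycle inhibitor p21, was 10.5 and 2.32 CPM (log2 fold change -2.09, edgeR adjusted p = 0.000159). Trp53 was 30.5 and 31.1 CPM (edgeR adjusted p = 0.966). Among the 7 genes for turnover of MCL1 and BIM, Fbxw7, which encodes a ubiquitin ligase adaptor for MCL1, rose from 17.5 to 39.7 CPM (log2 fold change 1.18, edgeR adjusted p = 0.000117), and Mapk3, the kinase ERK1, fell from 47.7 to 22.7 CPM (log2 fold change -1.09, edgeR adjusted p = 2.56e-05). Huwe1, another ligase for MCL1, named after its values were seen, was 50 and 84.3 CPM (log2 fold change 0.74, edgeR adjusted p = 0.00498) and was not called among the 4 populations.

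**Figure D5:**
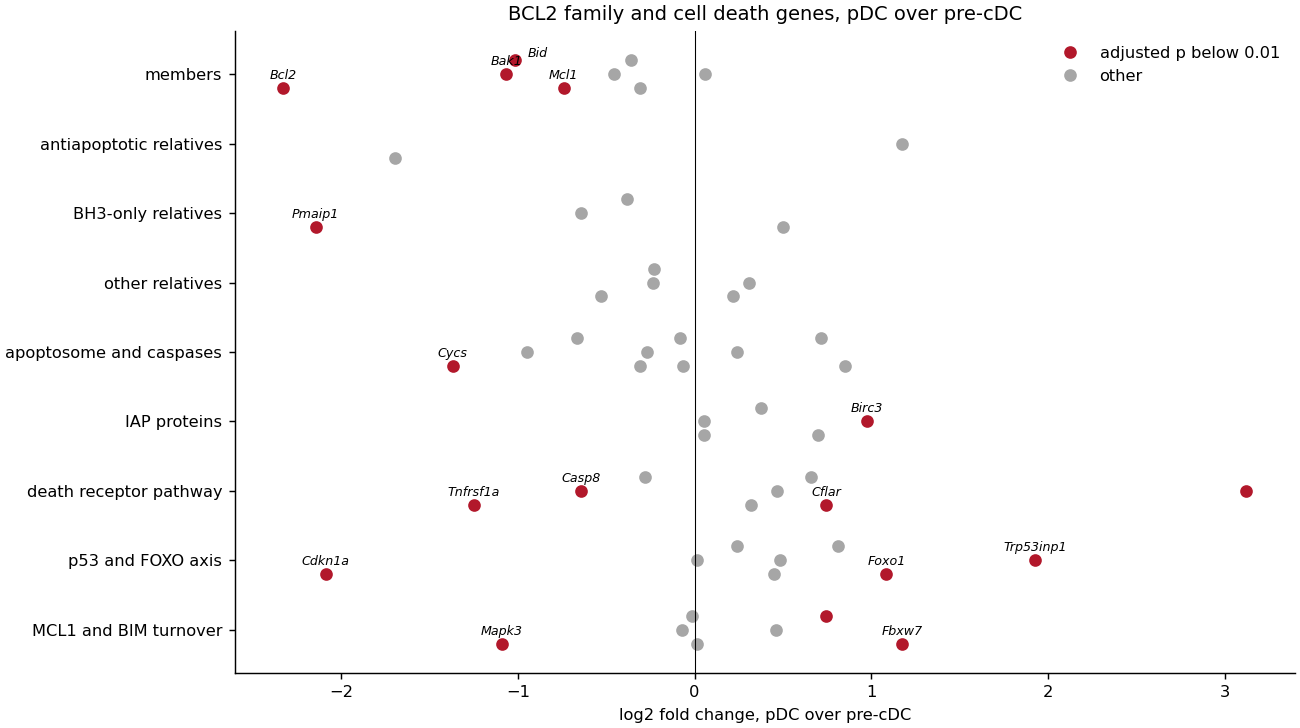
Log2 fold change of pDCs over pre-cDCs (x axis) for the tested members and the tested genes of the 8 pathway lists (y axis, points spread within a list for sight). Each point is a gene, red for an adjusted p below 0.01, with called members and rule-named genes labelled and the red points of Tnfrsf10b and Huwe1 unlabelled. Bcl2 (-2.33) and Pmaip1 (-2.14) lie farthest left, and of the pathway genes 7 are red above 0 and 6 below.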

How the data were processed

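The authors made SCRB-seq libraries from the sorted cells. Per the methods, reads went through zUMIs, and STAR 2.5.2b (submitters' processing notes) aligned them to mm10 with Ensembl genes on GRCm38. The deposited values are unnormalized counts. The sources used here do not give whether they count reads or molecular identifiers, nor the strand setting. Symbols were found for 21410 of 21754 genes. Positions are from GENCODE vM21 and promoter windows from RefSeq, both on GRCm38.

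TMM-scaled counts were fitted with edgeR 4.0.16 (R 4.3.3) by robust quasi-likelihood, with the 12 libraries together and without covariates. The fit kept 15293 genes whose count averaged 1 or more and left out 6461. Calls used a Benjamini-Hochberg adjusted p of 0.01. The steps were tested on simulated data. No 2 libraries of a population agreed within sampling noise (chi-square per degree of freedom 4.52 to 51.8). Floors of 3 counts cover counting error only.

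The members, the grouping and the gene lists were chosen with earlier results of these data known. Some genes of the lists are left out and not reported here. Besides the members, the rule named, per pathway list, the 2 genes with the largest change in each direction in pDCs over pre-cDCs among those called among the populations, and the 3 genes most correlated with each of the 2 members with the smallest p, among genes averaging 10 CPM or more. Alternatives were the deposited labels, a replicate block, DESeq2 1.42.0, its size factors, other filters, a cutoff of 0.05, fits of 6 libraries and leaving out each library.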

Additional observations from a re-analysis of the deposited data

How the results depend on the processing

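By the deposited labels, with or without a replicate block, every count of called genes or members was 0. In lo-lo over pre-cDC the sign of Bcl2 changed (log2 fold change -0.031, and -0.12 with the block). It also changed in pDC over lo-hi (0.89 and 0.93). Each of these values was smaller than its SE (0.962 and 1.16 in the former, 0.985 and 1.15 in the latter). The matched set numbers were not taken as a pairing in the main fit, since correlations within a set were not all positive. Correlations of the libraries' deviations from their population means ran from -0.15 to 0.309 within a set (mean 0.118 over 18 pairs). The mean was -0.0586 over 36 other pairs, so libraries of a set were more alike on average. Every library of set 3 differed from all libraries of the other sets in Ddx3y and Xist. The fit without the block leaves such differences between sets in the spread. With the matched set as replicate block, 2 members were called in lo-lo over pre-cDC (743 genes). There were also 2 in pDC over lo-lo (2594 genes) and 2 in lo-hi over pre-cDC (2482 genes). Among the populations 4 members were called (3730 genes), with 4 of 8 granulocyte markers and 3 of 4 basophil and mast cell markers. In pDC over lo-hi 346 genes were called. The members gained were Mcl1 in lo-lo over pre-cDC (edgeR adjusted p = 0.00353 with the block) and Bid among the populations (2.55e-05), in pDC over lo-lo (8.18e-05) and in lo-hi over pre-cDC (0.00533). Without a filter, 2 members were called in lo-lo over pre-cDC (733 genes, against 483 as reported). There were 2 in pDC over lo-lo (2404 genes, against 2108) and 2 in lo-hi over pre-cDC (2394 genes, against 2001). In pDC over lo-hi 344 genes were called, against 147. At a cutoff of 0.05, there were 2 members in lo-lo over pre-cDC, 3 in pDC over lo-lo and 2 in lo-hi over pre-cDC, and 907 genes in lo-lo over pre-cDC, 1321 in lo-hi over lo-lo, 327 in pDC over lo-hi, 3332 in pDC over lo-lo and 3063 in lo-hi over pre-cDC. DESeq2 called 2 members in lo-lo over pre-cDC (478 genes), 2 in pDC over lo-lo (1872 genes) and 0 in lo-hi over pre-cDC (1870 genes). Fits of the 6 libraries compared gave 2 members in pDC over lo-lo (1997 genes) and 0 in lo-hi over pre-cDC (2020 genes). They called 1200 genes in lo-hi over lo-lo and 221 in pDC over lo-hi. With 1 library left out, the members called were 2 to 4 among the populations (2411 to 3335 genes), 1 to 2 in lo-lo over pre-cDC (280 to 662 genes), 1 in lo-hi over lo-lo (381 to 945 genes), 1 in pDC over lo-hi (65 to 213 genes), 3 to 4 in pDC over pre-cDC (2503 to 3556 genes), 1 to 2 in pDC over lo-lo (1568 to 2342 genes) and 0 to 2 in lo-hi over pre-cDC (1380 to 2339 genes). The causes were not tested. Under every alternative that kept the matched wells, the called differences of Bcl2 stayed called in the same direction. Depth limits Bcl2l11 most, with as few as 9 counts in a library.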
